A study of Homo sapiens with 6 samples.

Results

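The mitosis and kinetochore genes are 35 human genes whose proteins build the kinetochore and the spindle, run the spindle checkpoint, divide the cell or drive entry into and exit from mitosis. They were taken by symbol from a list of names, and all 35 were found among the 58174 genes of the expression table. Of those genes, 20493 had a mean of at least 0.5 TPM (a transcript's share of all transcripts, corrected for length and scaled to a fixed total) in at least 1 group and were compared, and all 35 members were among them. RNA was sequenced from AGS cells, a line derived from a human gastric adenocarcinoma, in 3 libraries titled si-NC, a negative control siRNA, and 3 titled si-FTO, an siRNA against FTO. The labels give the genotype of the si-NC libraries as wild type and that of the si-FTO libraries as FTO-/-, while the titles and the study's methods describe depletion by siRNA, so the groups are called here by their titles. Both groups are labelled as the same single cell line, and whether the libraries match that label was not tested. The values are the authors' mean of each group, from which no spread between libraries, test or depth could be computed; the authors' own test results were not used, so each difference is given without a replicate check.

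At the start of mitosis CDK1 bound to a B-type cyclin phosphorylates its many substrates, and the Aurora and Polo kinases mature the spindle poles and correct faulty attachments. Kinetochores assemble on centromeric nucleosomes that hold CENPA and bind microtubules through the Ndc80 complex, and unattached kinetochores keep the anaphase-promoting complex (APC/C) silent through the spindle assembly checkpoint until CDC20 is released. Most of these genes are transcribed mainly in G2 and M phase, so in a bulk sample fewer dividing cells and less RNA per cell cannot be told apart.

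FTO (ENSG00000140718, chr16:53735604-54192424 in GRCh37), the RNA demethylase that the siRNA targets, had a mean of 33.1 TPM (si-NC) and 7.27 TPM (si-FTO). Wherever a pair of levels is given, si-NC comes first. Its log2 ratio, computed like all ratios here as log2((mean TPM si-FTO + 1)/(mean TPM si-NC + 1)), was -2.05, and its direction is that of the labels. Several epithelial markers were at or near 0 in these cells, labelled as a stomach line. EPCAM, an epithelial surface protein, had 1.22 TPM (si-NC) and 0.113 TPM (si-FTO), and KRT19 was listed at 0 in si-NC. The 16 epithelial markers summed to 87.6 TPM in si-NC, led by KRT18, and to 5357 TPM in si-FTO, led by KRT8, which had 10.8 TPM (si-NC) and 3139 TPM (si-FTO). Lineage markers differed between the groups in opposite directions. KRT7 was listed at 0 in si-NC and had 253 TPM in si-FTO, and ELF3 had 0.115 TPM and 93.3 TPM. CDX2, an intestinal transcription factor, had 18.1 TPM in si-NC and was listed at 0 in si-FTO. CDX1 and TFF1 were at 0 in both groups, KRT20 in si-NC, and ESRP1 and GRHL2 in si-FTO. The 8 fibroblast markers summed to 17.0 TPM and 46.7 TPM, led in both groups by COL1A1, with FAP listed at 0 in si-NC and COL1A2 and PDGFRA in si-FTO. Of the leukocyte markers, PTPRC and MS4A1 were listed at 0 in both groups, LYZ in si-NC and CD3E in si-FTO. The 3 endothelial markers found summed to 0.414 TPM in si-NC, led by KDR, and to 41.0 TPM in si-FTO, nearly all of it CDH5, with KDR at 0 in si-FTO. These marker differences leave the identity of the libraries in doubt, so each ratio below compares the libraries titled si-FTO with those titled si-NC. The part of the marker differences in the results was not tested.

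A smaller share of the mitotic genes than of all genes passed a 1.5-fold difference between the groups, a description that was not tested. CENPF and NDC80 were at least 1.5-fold higher in si-FTO, 2 of 35 members, where 18.8% of all genes compared were. AURKB, MAD2L1, TTK and CDCA8 were at least 1.5-fold lower, 4 of 35 members, where 31.2% of all genes compared were. At 2-fold, 0 members were higher and 0 lower, beside 11.4% and 17.0% of all genes compared. The 6 members past 1.5-fold are 17.1% of the module, and among the 10108 genes whose average over both groups lay within the range of the members, from 8.09 to 338 TPM, a comparison added after seeing the data, 45.4% passed that threshold in either direction. ECT2 and MKI67, both at 0.58, and BUB1, at -0.57, lay just inside the threshold.

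The log2 ratios of the members ran from -0.92 to 0.96, with a median of 0.09 and quartiles of -0.38 and 0.34. All genes compared had a median of -0.20, with quartiles of -0.74 and 0.38, so the middle of the mitotic genes lay 0.29 above that of all genes. Of the 35 members, 19 were above 0, beside 8214 of the 20493 genes compared. Above the median of all genes, which by definition has equal numbers on each side, were 22 members. Taken relative to that median, 7 members were at least 1.5-fold higher and 3 at least 1.5-fold lower. The matching shares of all genes relative to that median were not computed. Scaling si-FTO by the median ratio of the expressed genes gave 7 higher and 3 lower, and quantile normalization gave 5 and 5, so the balance of the directions depends on the scaling. Of all genes compared, 49.2% with median-ratio scaling and 49.1% with quantile normalization were past 1.5-fold in either direction. Their shares in each single direction were not computed, so the members' balance of directions has no background under these settings. With median-ratio scaling CDCA8, at -0.46, was no longer past 1.5-fold, while MKI67, ECT2, KIF23, ASPM and CENPA were, and CENPF, at 1.12, was past 2-fold. With quantile normalization MKI67, ECT2 and ASPM were past it in the higher direction and BUB1 in the lower. The distance of 0.29 between the medians of the members and of all genes was 0.32 with median-ratio scaling. It was 0.14 with quantile normalization and 0.087 without the filter on level. The members' mean TPM summed to 3616 with si-NC and 3475 with si-FTO, a change of -3.89%.

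**Figure D1:**
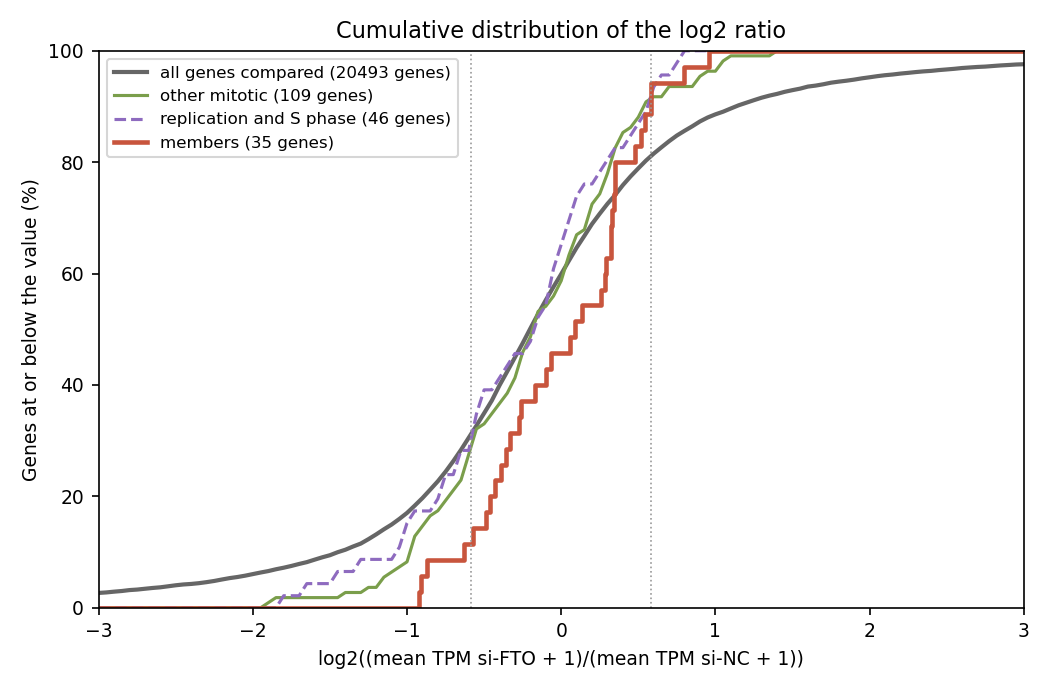
Cumulative share of genes, in percent, at or below each log2 ratio of the group means (si-FTO over si-NC), for the 35 members, the 20493 genes compared, the other mitotic genes and the replication and S phase genes; dotted lines mark 1.5-fold. The members' curve starts at -0.92 and ends at 0.96, while that of all genes runs past both ends of the axis.

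The order of the members by level was much alike in both groups, with a Spearman correlation of 0.91 across the 35 genes, which are not independent replicates. PTTG1 (365 TPM), UBE2C (345 TPM) and CDC20 (287 TPM) had the highest means in si-NC, and the same genes were highest in si-FTO. CENPE was the lowest in both, with 8.91 TPM and 7.27 TPM. Means of at least 100 TPM were found for 15 members in si-NC and 14 in si-FTO. The largest move in the order was that of AURKB, from rank 4 in si-NC to rank 13 in si-FTO.

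**Figure D2:**
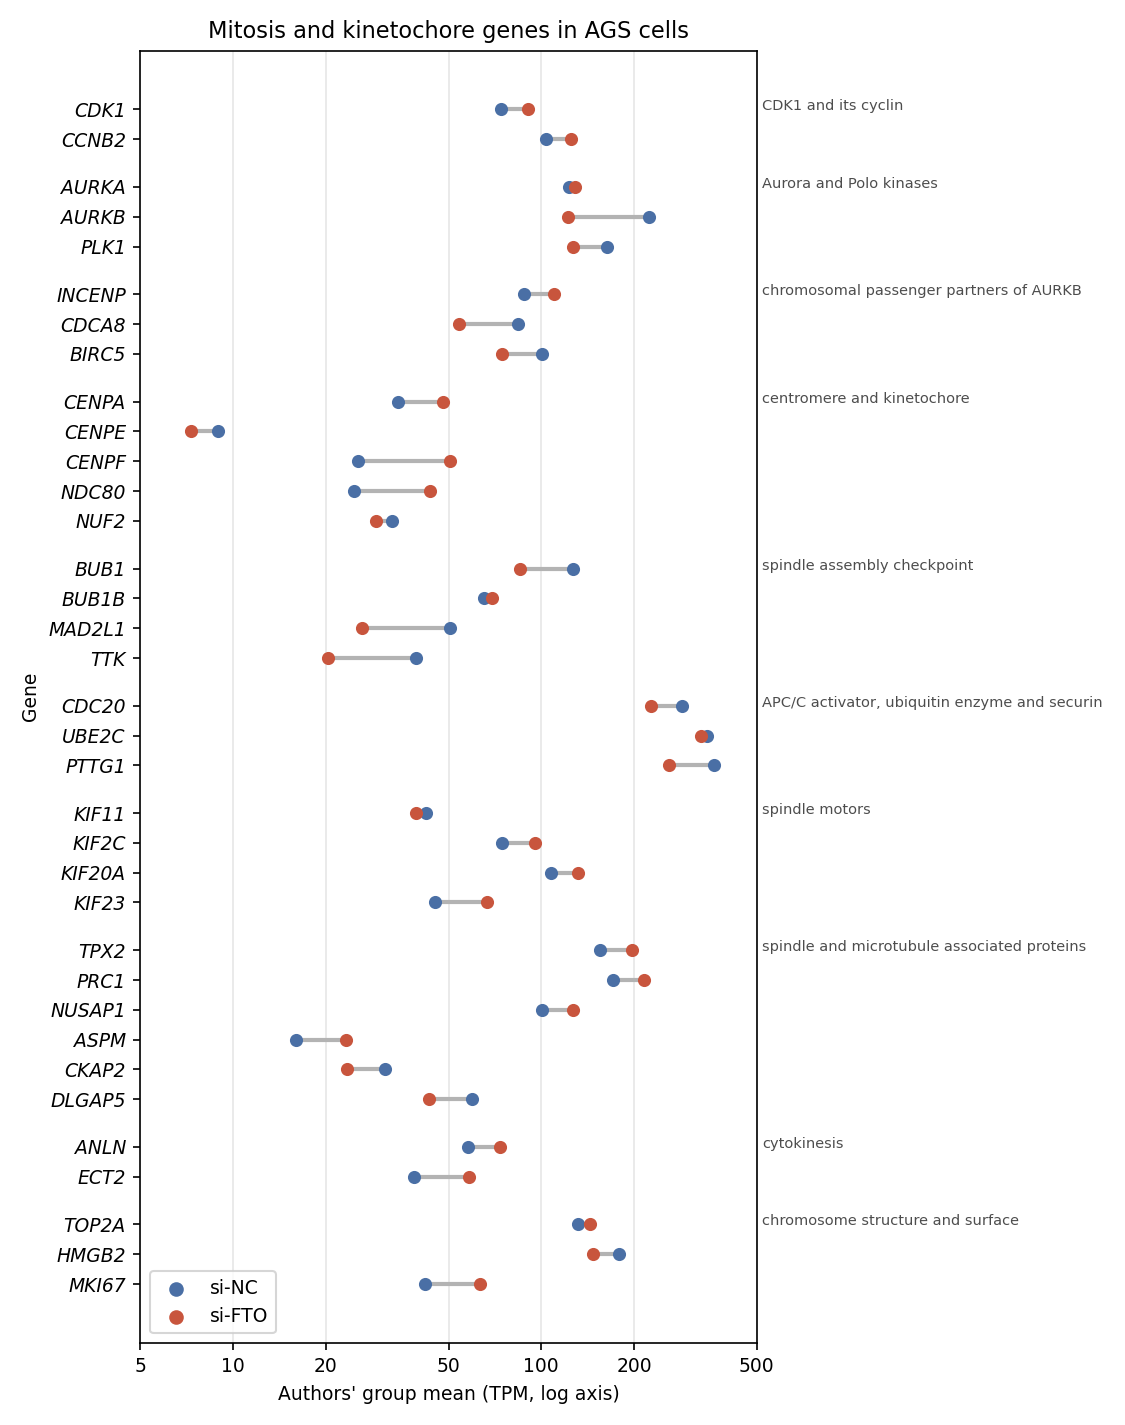
Authors' mean TPM of each of the 35 members in si-NC (blue) and si-FTO (red) on a log axis, grouped by role. The longest lines are those of CENPF, MAD2L1, TTK, AURKB and NDC80, and all other members moved by less than that.

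CDK1 and its cyclin differed little. CDK1, the kinase that starts mitosis, had 73.9 TPM (si-NC) and 90.6 TPM (si-FTO), a log2 ratio of 0.29. CCNB2, a B-type cyclin, had 103.9 TPM and 124.6 TPM, a log2 ratio of 0.26. Their ratio to each other was 1.41 with si-NC and 1.37 with si-FTO, the smallest shift among the partner genes compared. CCNB1, the other mitotic B-type cyclin, had 230.2 TPM and 243 TPM. CCNA2, the cyclin that partners CDK1 and CDK2 before mitosis, stood apart with 120.6 TPM and 62.9 TPM, a log2 ratio of -0.93.

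Among the Aurora and Polo kinases the levels of the 3 genes drew together. AURKB, the kinase that corrects faulty kinetochore attachments, had 224 TPM (si-NC) and 122 TPM (si-FTO), a log2 ratio of -0.87. PLK1, which acts at centrosomes, kinetochores and the midzone, had 163 TPM and 127 TPM, a log2 ratio of -0.36. AURKA, the kinase of the spindle poles, had 123 TPM and 128 TPM, a log2 ratio of 0.06. In si-NC the highest of these genes was AURKB, and in si-FTO it was the lowest.

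AURKB works in the chromosomal passenger complex, whose scaffold INCENP carries borealin (CDCA8) and survivin (BIRC5) as its centromere-binding subunits. CDCA8 had 84.2 TPM (si-NC) and 54.1 TPM (si-FTO), a log2 ratio of -0.63. BIRC5 had 101 TPM and 74.5 TPM, a log2 ratio of -0.43. INCENP had 87.6 TPM and 110.1 TPM, a log2 ratio of 0.33. The scaffold therefore differed in direction from the kinase and both of its other partners, and it did so under every scaling tried. The level of AURKB was 2.56 times that of INCENP in si-NC and 1.11 times in si-FTO. For CDCA8 that ratio was 0.961 and 0.492, and for BIRC5 1.15 and 0.677.

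The centromere and kinetochore genes held both members past 1.5-fold in the higher direction. CENPF, a large protein of the kinetochore's outer corona, had 25.5 TPM (si-NC) and 50.4 TPM (si-FTO), a log2 ratio of 0.96 and the highest of the module. NDC80, the microtubule-binding subunit that names its complex, had 24.7 TPM and 43.6 TPM, a log2 ratio of 0.80. CENPA, the histone H3 variant of the centromere, had 34.2 TPM and 48.0 TPM, a log2 ratio of 0.48. NUF2 and CENPE lay on the other side of 0. NUF2, which forms a dimer with NDC80, had 32.8 TPM and 29.0 TPM, a log2 ratio of -0.17. CENPE, the kinesin that carries chromosomes to the spindle equator, had a log2 ratio of -0.26. The ratio of NDC80 to NUF2 was 0.752 with si-NC and 1.504 with si-FTO. NUF2 overlaps RGS5, with 3.31 TPM and 1.61 TPM, and ENSG00000232995, with 11.2 TPM and 4.01 TPM, on the opposite strand, so its values and this ratio are uncertain where counting did not use strand. SPC24 and SPC25, the other dimer of the Ndc80 complex, had log2 ratios of -0.34 and -0.62, and were named after their values were seen.

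Of the 4 spindle assembly checkpoint genes in the module, 3 lay below 0, as did 12279 of the 20493 genes compared. Past 1.5-fold 2 of the 4 were lower, where 31.2% of all genes compared were. Of 6 other checkpoint and corona genes 4 lay above 0, with a median log2 ratio of 0.12. Past 1.5-fold, however, 0 of these 6 were higher and 2 lower. Their mean TPM summed to 350 with si-NC and 312 with si-FTO, a change of -10.8%. MAD2L1, the checkpoint protein that locks onto CDC20, had 50.4 TPM (si-NC) and 26.1 TPM (si-FTO), a log2 ratio of -0.92 and the lowest of the module. TTK, the kinase that starts checkpoint signalling at kinetochores, had 39.1 TPM and 20.3 TPM, a log2 ratio of -0.91. BUB1, the kinase that marks centromeric chromatin and recruits checkpoint proteins, had 127 TPM and 85.0 TPM. BUB1B, which encodes BUBR1 of the mitotic checkpoint complex, was the exception of the 4, with 65.1 TPM and 69.3 TPM, a log2 ratio of 0.09. Summed over the 4 genes, the mean TPM was 282 with si-NC and 201 with si-FTO, a change of -28.7%.

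The genes of the machinery that the checkpoint restrains were the most abundant members, and none passed 1.5-fold. CDC20, the activator of the APC/C, had 287 TPM (si-NC) and 227 TPM (si-FTO), a log2 ratio of -0.34. PTTG1, the securin that holds separase inactive, had 365 TPM and 260.2 TPM, a log2 ratio of -0.49. UBE2C, the enzyme that starts ubiquitin chains on APC/C substrates, had 345 TPM and 330.1 TPM, a log2 ratio of -0.06 that turned to 0.11 with median-ratio scaling. Its pseudogene UBE2CP5 had 13.1 TPM and 2.61 TPM, the only one of 18 named copies of members at 2 TPM or more in either group, and reads shared by near-identical copies make both values uncertain. MAD2L1 had 0.176 times the level of CDC20 in si-NC and 0.115 times in si-FTO, so the inhibitor was lower relative to its target.

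Of the 4 spindle motors, 3 were above 0, beside 8214 of the 20493 genes compared. The summed level of the 4 motors was 269.8 TPM (si-NC) and 333 TPM (si-FTO). KIF23, the centralspindlin kinesin of the midzone, had 45.3 TPM and 66.4 TPM, a log2 ratio of 0.54. KIF2C, a microtubule depolymerase at centromeres, had 74.8 TPM and 95.7 TPM, a log2 ratio of 0.35. KIF20A, a kinesin of the midzone and cleavage furrow, had 108 TPM and 131 TPM, a log2 ratio of 0.28. KIF20A overlaps BRD8, with 73.7 TPM and 89.2 TPM, and CDC23, with 80.9 TPM and 40.6 TPM, on the opposite strand, and since the strand setting of the counting is not stated, its values are uncertain. KIF11, the kinesin that pushes the spindle poles apart, had 42.1 TPM and 39.3 TPM, a log2 ratio of -0.10 that turned to 0.07 with median-ratio scaling.

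Of the 6 spindle and microtubule associated proteins, 4 were above 0 and 2 below, beside 8214 above and 12279 below of the 20493 genes compared. None of the 6 passed 1.5-fold, although ASPM did with median-ratio scaling (0.68) and quantile normalization (0.60). TPX2, which activates AURKA on spindle microtubules, had 155 TPM (si-NC) and 197 TPM (si-FTO), a log2 ratio of 0.35. PRC1, the bundler of antiparallel microtubules in the midzone, had 172 TPM and 215 TPM, a log2 ratio of 0.32. NUSAP1, a microtubule bundler near chromosomes, had 101 TPM and 127 TPM, a log2 ratio of 0.33. These ratios were close to one another, while ASPM, a protein of the spindle poles, was further up at 16.0 TPM and 23.3 TPM, a log2 ratio of 0.52. DLGAP5, which stabilises kinetochore fibres, had 59.8 TPM and 43.2 TPM, a log2 ratio of -0.46. CKAP2, another spindle protein, had 31.1 TPM and 23.5 TPM, a log2 ratio of -0.39. Reads of NUSAP1 may be shared with OIP5 and OIP5-AS1, which overlap it, as may those of CENPA with SLC35F6 and of ANLN with MATCAP2.

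Both cytokinesis genes were above 0, beside 8214 of the 20493 genes compared. ECT2, the exchange factor that switches on RhoA at the cleavage furrow, had 38.6 TPM (si-NC) and 58.1 TPM (si-FTO), a log2 ratio of 0.58. ANLN, anillin, which links the contractile ring to the membrane, had 57.8 TPM and 73.4 TPM, a log2 ratio of 0.34. RACGAP1, which forms centralspindlin with KIF23 and binds ECT2, had 101.8 TPM and 205 TPM, a log2 ratio of 1.00. Because RACGAP1 differed more than its partners, the ratio of KIF23 to RACGAP1 was 0.445 with si-NC and 0.324 with si-FTO, and that of ECT2 to RACGAP1 was 0.379 and 0.283.

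The last role is the structure and surface of chromosomes. MKI67, the Ki-67 protein that coats mitotic chromosomes, had 41.8 TPM (si-NC) and 63.1 TPM (si-FTO), a log2 ratio of 0.58. TOP2A, the topoisomerase that untangles sister DNA, had 131 TPM and 144 TPM, a log2 ratio of 0.13. HMGB2, a DNA-bending chromatin protein, had 178 TPM and 147 TPM, a log2 ratio of -0.27. MKI67 and TOP2A, common markers of proliferating cells, were thus on the higher side while HMGB2 was on the lower.

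**Figure D3:**
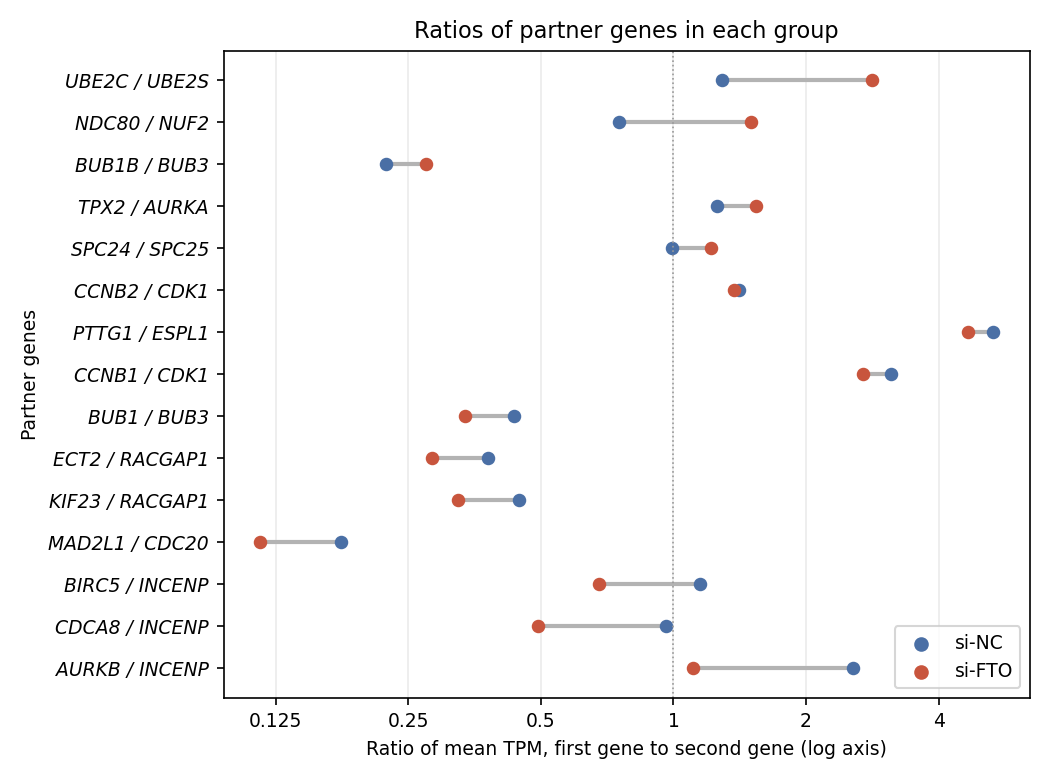
Ratio of the authors' mean TPM of the first gene to the second, on a log axis, for 15 pairs of partner genes in si-NC (blue) and si-FTO (red). The ratios of AURKB, CDCA8 and BIRC5 to INCENP were lower in si-FTO, and those of NDC80 to NUF2 and UBE2C to UBE2S were higher.

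Ratios between genes within a group do not change when a group is multiplied by a single factor, as in median-ratio scaling, whereas quantile normalization can change them. The 15 pairs were chosen after the values were seen, from complexes and direct partnerships, and are a description. The widest shifts in each direction were those of AURKB to INCENP, which fell by 1.21 on the log2 scale, and of UBE2C to UBE2S, which differed by 1.13 because UBE2S, the enzyme that lengthens the chains UBE2C starts, had a log2 ratio of -1.19. For PTTG1 and its client separase, ESPL1, the ratio was 5.32 with si-NC and 4.67 with si-FTO, a small shift. BUB1 and BUB1B parted in direction relative to their shared partner BUB3, with 0.434 and 0.337 for BUB1 and 0.223 and 0.274 for BUB1B.

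The 109 other mitotic genes, a list without the members, had a median log2 ratio of -0.19, close to the -0.20 of all genes compared. At least 1.5-fold higher were 9 of them (8.26%, beside 18.8% of all genes) and at least 1.5-fold lower 31 (28.4%, beside 31.2%), so the share that was lower is near the background. Their highest values were those of NUMA1 (1.35), which anchors spindle poles to the cortex, FOXM1 (1.07), a transcription factor of G2 and M phase genes, and CDC25B (1.02), a phosphatase that activates CDK1. Their lowest were those of CENPW (-1.95), an inner kinetochore histone-fold protein, MIS18A (-1.86), which licenses the loading of CENPA, and NCAPH2 (-1.41), a condensin subunit. Of the 16 inner kinetochore genes, 8 were lower past 1.5-fold and 1 was higher, while the member CENPA was at 0.48. MYBL2, the other transcription factor of these genes, had 371 TPM (si-NC) and 214 TPM (si-FTO), a log2 ratio of -0.79, opposite in direction to FOXM1, which had 50.6 TPM and 108 TPM.

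Genes of the phases before mitosis moved in both directions. The 46 replication and S phase genes had a median of -0.16, which turned to 0.0072 with median-ratio scaling, with 3 higher (6.52%) and 13 lower (28.3%) past 1.5-fold, the latter again near the share of all genes. TYMS (0.76), E2F1 (0.72) and PCNA (0.60) were their highest, and GINS4 (-1.80) and CHAF1B (-1.47) were among their lowest. The 14 G1 genes had a median of 0.03, with 3 higher and 3 lower, 21.4% in each direction. CDKN1A, the p21 inhibitor, had 41.1 TPM and 87.1 TPM, a log2 ratio of 1.06, followed by RBL1 and CDK2, both at 0.67. CCND2 had 28.9 TPM in si-NC and was listed at 0 in si-FTO, CDK6 was at -1.42 and E2F4 at -0.78. None of these list medians was tested against that of the members.

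The genomic surroundings of the members were described by the median log2 ratio of the 50 nearest genes with a mean of at least 10 TPM in at least 1 group. The farthest of these 50 genes lay from 0.99 megabases (Mb) away for AURKB to 20.5 Mb away for HMGB2. The medians therefore describe regions of very unequal width. Members whose neighbours were lower tended to be lower themselves, with a Pearson r of 0.52 and a Spearman rho of 0.41 across the 35 genes, some of which share neighbours. Without CCNB2 and TTK, the genes farthest from the middle of the neighbour medians, these were 0.45 and 0.37 across 33 genes. The 5 members with a neighbour median of at most -0.3, a limit chosen after the values were seen, were all below 0, and the 6 with one of at least 0.3 were all above 0. TTK (chr6:80713604-80752244 in GRCh37) was at -0.91 among neighbours at -0.77. MAD2L1 (chr4:120976778-120988013) was at -0.92 among neighbours at -0.55. PTTG1 (chr5:159848862-159855746) was at -0.49 among neighbours at -0.64. For these 3 genes the neighbour median lay in the same direction as the gene. Their farthest neighbours lay 18.6 Mb (TTK), 14.6 Mb (MAD2L1) and 10.7 Mb (PTTG1) away, so these medians describe wide regions. NDC80 (chr18:2571556-2616634) was at 0.80 among neighbours at 0.51, the farthest of them 16.6 Mb away. AURKB (chr17:8108051-8113918) and CENPF (chr1:214776528-214837917) were the members whose log2 ratios differed most from their neighbour medians. AURKB was at -0.87 among neighbours at 0.02, the farthest of them 0.99 Mb away. CENPF was at 0.96 among neighbours at -0.13, the farthest of them 9.04 Mb away. With the neighbour median subtracted, 4 members were at least 1.5-fold higher and 1, AURKB, at least 1.5-fold lower. The matching shares over all genes compared were not computed, for these counts or for the counts by neighbour median. Whether either differs from the background is therefore not known.

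**Figure D4:**
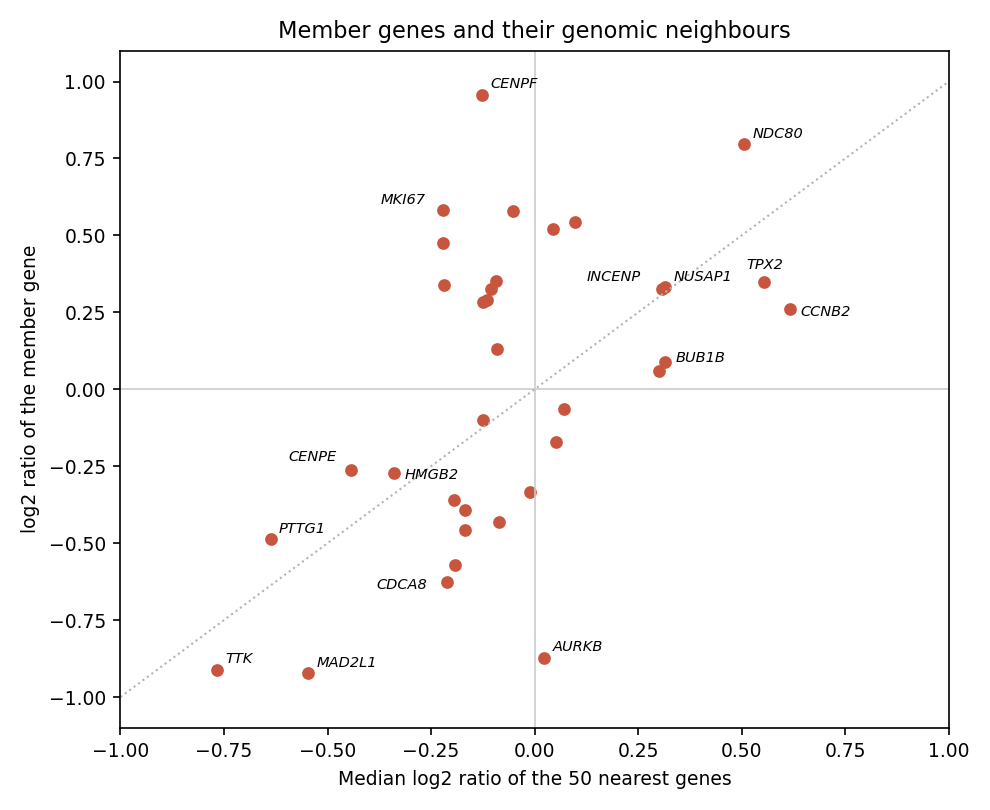
Log2 ratio of each of the 35 members against the median log2 ratio of its 50 nearest expressed genes. The farthest of these lay from 0.99 Mb (AURKB) to 20.5 Mb (HMGB2) away. The dotted line marks equal values. TTK, MAD2L1 and PTTG1 lie at the lower left and NDC80 at the upper right, while AURKB and CENPF lie far from the line.

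The members were also compared in transcript length, taken from the canonical transcript. Longer transcripts tended to have higher log2 ratios, with a Spearman rho of 0.30 across the 35 genes. MKI67 (12716 bases), ASPM (10863 bases) and CENPF (10290 bases) have the longest, and all were at 0.52 or above. CENPE, the next at 8541 bases, was at -0.26. The mean level of a member showed a weaker relation to its ratio, with a rho of -0.16.

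The promoters of these genes share sequence words that the choice of members did not use. Promoters from RefSeq (GRCh38.p14), each 250 bases before to 50 after the start of a gene, were found for 29 of the 35 members; for a symbol with several entries the one listed first was used. The cell cycle genes homology region (CHR), searched as TTTGAA or TTTAAA on both strands, was present in 26 of these 29 promoters, against 24.3% of 27305 promoters of all symbols. CCAAT, searched on both strands, was present in 22 of the 29, against 35.7% of all promoters, and both words in 20 of the 29, against 9.49%. Of the other mitotic genes, 46 of 94 promoters held a CHR word, and of the replication and S phase genes 4 of 39. CCAAT was present in 51 of the 94 (54.3%) and in 23 of the 39 (59.0%), in both lists above the share of all promoters. Both words were in 30 of the 94 and in 2 of the 39. AURKB, BUB1 and CKAP2 were, of the 29, the members without a CHR word in this window, which says only that these letters are not in it. To show how the words are placed, the 120 bases before the start are printed for the 3 highest and 3 lowest members among those with a single entry and both words in that stretch, so that the printed promoters hold both words by choice. CHR and CCAAT words are in capitals, in either orientation, and some of them adjoin or overlap. Each sequence is written 5′ to 3′ on the strand of its gene, and a match describes letters, not a bound site.
CENPF (chr1:214603075-214603194, plus strand, log2 ratio 0.96): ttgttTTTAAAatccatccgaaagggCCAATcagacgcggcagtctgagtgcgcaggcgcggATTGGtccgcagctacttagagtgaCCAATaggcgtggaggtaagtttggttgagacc
MKI67 (chr10:128126424-128126543, minus strand, log2 ratio 0.58): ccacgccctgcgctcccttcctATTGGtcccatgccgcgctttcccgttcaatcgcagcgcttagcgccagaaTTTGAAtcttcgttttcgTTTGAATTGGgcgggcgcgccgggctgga
KIF23 (chr15:69414229-69414348, plus strand, log2 ratio 0.54): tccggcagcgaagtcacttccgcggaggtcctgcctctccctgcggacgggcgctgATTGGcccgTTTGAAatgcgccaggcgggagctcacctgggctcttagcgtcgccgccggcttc
PLK1 (chr16:23678769-23678888, plus strand, log2 ratio -0.36): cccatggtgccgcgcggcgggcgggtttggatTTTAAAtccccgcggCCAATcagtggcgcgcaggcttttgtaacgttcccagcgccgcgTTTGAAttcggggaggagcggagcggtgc
DLGAP5 (chr14:55191586-55191705, minus strand, log2 ratio -0.46): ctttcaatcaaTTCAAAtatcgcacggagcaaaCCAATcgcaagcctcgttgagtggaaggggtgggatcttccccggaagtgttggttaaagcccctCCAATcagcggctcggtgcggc
CDCA8 (chr1:37692396-37692515, plus strand, log2 ratio -0.63): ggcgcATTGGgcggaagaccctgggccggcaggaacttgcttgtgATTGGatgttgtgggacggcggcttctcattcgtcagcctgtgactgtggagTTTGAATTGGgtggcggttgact
In CDCA8 and MKI67 the CHR word nearest the start shares its last base with a CCAAT word in reverse, and in CENPF and DLGAP5 the only CHR word of the printed stretch is the farthest of its marked words from the start.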

How the data were processed

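Libraries of AGS cells were made with a stranded kit, and whether counting used strand is not stated. The study's methods name Bowtie and RSEM with hg19, and the submitters' processing notes name HISAT2 with hg19. The deposited unit is TPM, of which the authors gave a single mean for si-NC and for si-FTO; TPM keeps no depth, and the error between libraries is unknown. Columns with the authors' own log2 ratio, p-value and q-value, and a second table of the genes they called, were not used. A value of 0.0001 TPM was read as 0. The log2 ratio was computed after adding 1 TPM, which understates changes of low genes, over genes with at least 0.5 TPM in at least 1 group. The threshold was 1.5-fold, and no test was run, because only the group means were used. Symbols came from a table of gene names (238 of 239 listed genes found), and coordinates from GENCODE lifted to GRCh37. Named were all members, FTO, CCNB1, CCNA2, FOXM1, MYBL2 and, of each other list, the 3 genes of at least 10 TPM with the largest ratio in each direction; partner pairs, overlapping genes, markers named singly and other names were chosen after their values were seen. Some genes covered by these rules are not reported here. Members and lists were chosen with earlier results of these data known. Python 3.11.15, numpy 2.4.6, pandas 2.3.3 and matplotlib 3.10.9 were used, and the calculations were tested on simulated data.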

Additional observations from a re-analysis of the deposited data

How the results depend on the processing

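No paired analysis was possible because the expression values used are group means and the authors' own test results were not used. No library could be left out of a mean. A value was taken as moved past 0.1 on the log2 scale, and a count or share past 1.5 times. Members higher in si-FTO numbered 4 with a pseudocount of 0.1, 7 with median-ratio scaling and 5 with quantile normalization. With that pseudocount 22.9% of members and 59.3% of all genes compared were past 1.5-fold in either direction. At 2-fold, without rescaling, 0 were higher and 0 lower, while with median-ratio scaling CENPF, at 1.12, was past 2-fold. At the lower threshold tried, 0.32 on the log2 scale, 13 of 35 members were higher and 11 lower. Together these are close to the 70.5% of all genes compared that passed it in either direction. With median-ratio scaling the median log2 ratio was 0.26 for the members, -0.026 for the other mitotic genes, 0.0072 for the replication and S phase genes, 0.18 for the G1 genes and -0.066 for all genes compared, an upward shift that follows from the scaling. Quantile normalization put the median of all genes at -0.066, and no filter put it at 0. The G1 genes had a median of 0.16 at a minimum of 10 TPM. Settings added after seeing the data gave 28.6% of members past 1.5-fold with median-ratio scaling, beside 49.2% of all genes compared. With quantile normalization the shares were 28.6% of members and 49.1% of all genes compared. Without a filter, which adds genes at or near 0, they were 17.1% of members and 17.6% of all genes. KIF11 and UBE2C changed sign with median-ratio scaling, and neither was past 1.5-fold. With a pseudocount of 0.1 and without the 20 most abundant genes of each group, all 35 members were within 0.1 of their ratio, and with quantile normalization 34 of 35 were. The cause of the other shifts was not tested.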

Other observations

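The roles within the other mitotic genes are given by their counts past 1.5-fold, beside 18.8% of all genes higher and 31.2% lower; differences between roles were not tested. Of 14 genes of CDK1 activation and mitotic transcription, 2 were higher and 8 lower, with a median log2 ratio of -0.60. Of 8 further mitotic kinesins, 1 was higher and 0 lower, with a median of 0.31, close to the median of 0.32 of the 4 motors in the module. Of 11 genes of condensin and cohesin protection, 1 was higher and 2 lower, with a median of -0.42. Of 18 genes of the APC/C and separase, 2 were higher and 4 lower. Of 12 spindle proteins 1 was higher and 4 lower, and of 7 cytokinesis genes 1 and 0. None was higher among 6 genes listed with the mitotic kinases (BUB3, which is not a kinase, among them), 11 outer kinetochore genes and 6 checkpoint and corona genes, of which 1, 2 and 2 were lower. The summed mean TPM of the 16 inner kinetochore genes was 669 with si-NC and 453 with si-FTO, while that of the 11 outer kinetochore genes was 391 and 388.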
